A study of Rattus norvegicus with 6 samples.

Results

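Mag, Mog and Cnp encode myelin proteins that lie outside compact myelin or on its outer face, and their RNA was followed here in cultured rat oligodendrocyte precursors as they differentiated. The genes were chosen by identifier: ENSRNOG00000021023 (Mag), ENSRNOG00000000775 (Mog) and ENSRNOG00000017496 (Cnp). All 3 were found, each as 1 spot, among the 20174 rat gene spots of every array. Total RNA was hybridised to 6 single-colour arrays, 3 from cells after differentiation (day 3) and 3 from cells before it (day 0). Both groups were precursors grown in Raff medium, a defined culture medium, and the day 3 cells had been differentiated by a change of growth factors. In each group the titles number 2 arrays and leave 1 unnumbered, and the arrays are called number 1, number 2 and unnumbered below. The strain and age of the rats, the way the precursors were isolated and whether the 3 arrays of a day came from separate cultures do not appear in the labels. The spread behind each p-value is therefore that of the arrays, and it may be technical.

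Oligodendrocytes wrap axons of the central nervous system in myelin, a stack of membrane from which most of the cytoplasm has been squeezed out. Myelin-associated glycoprotein (Mag) is a sialic acid-binding adhesion protein of the immunoglobulin superfamily that sits on the innermost membrane, facing the axon. Myelin oligodendrocyte glycoprotein (Mog) is an immunoglobulin-domain protein of the outermost membrane and is widely used as a marker of late maturation. 2',3'-cyclic nucleotide 3'-phosphodiesterase (Cnp) is a cytoplasmic, membrane-anchored protein that keeps cytoplasmic channels open within the sheath, and it is known to appear earlier in the lineage than the other two.

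The promoters of Mag and Cnp, found in the RefSeq promoter table (rat build GRCr8), are shown, and Mog had none there. They run from 250 bases before the annotated gene start to 50 bases after it. Whether the genes share regulation was not tested. Capitals mark the longest run of letters that the Mag promoter (chr1:95290995-95291294, minus strand) and the Cnp promoter (chr10:86011254-86011553, plus strand) share in the same orientation.
Mag: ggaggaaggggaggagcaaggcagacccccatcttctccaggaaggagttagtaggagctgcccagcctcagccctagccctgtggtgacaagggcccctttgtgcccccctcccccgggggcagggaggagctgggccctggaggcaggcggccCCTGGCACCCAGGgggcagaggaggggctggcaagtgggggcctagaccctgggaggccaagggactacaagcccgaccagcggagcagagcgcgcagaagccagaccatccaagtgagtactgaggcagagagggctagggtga
Cnp: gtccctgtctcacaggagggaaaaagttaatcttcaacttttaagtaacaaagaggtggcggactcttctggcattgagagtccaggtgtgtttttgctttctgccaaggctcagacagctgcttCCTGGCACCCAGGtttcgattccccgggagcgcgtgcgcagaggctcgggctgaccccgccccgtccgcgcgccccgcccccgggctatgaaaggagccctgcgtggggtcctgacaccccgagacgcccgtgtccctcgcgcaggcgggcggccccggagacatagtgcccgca
The shared run is 13 bases long and consists of arms of 5 bases that are each other's reverse complement, around a spacer of 3 bases. It begins 95 bases before the start of Mag and 125 bases before the start of Cnp. On either strand it was present in 6 of 33469 promoters of 300 bases, those of Mag, Cnp, Lyrm9l1, Otud3, Ptgdr2 and LOC120099789. The run was picked after the sequences were compared, so its rarity is a description of these letters.

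Letters bound by factors of the lineage were searched on both strands of the same promoters. CTGGCAC, which with CTGGTAC is the motif known for Myrf, the myelin regulatory factor, occurred 1 time in each of the Mag and Cnp promoters, in both inside the shared run, and in 4.75% of all promoters. CTGGTAC was in neither and in 2.16% of all promoters. The E-box CANNTG, the core bound by basic helix-loop-helix factors such as Olig2, occurred 2 times in each promoter and in 72.1% of all promoters. ACAAAG, a core bound by Sox factors, occurred 1 time in each and in 18.8% of all promoters, and ACAAT, another such core, was in neither and in 33.7% of all. G and C made up 67.7% of the Mag and 63.3% of the Cnp window, above the median of 51.7%. The shares of all promoters were not matched for this. A match is a run of letters and not a measured binding site.

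Blank spots, which hold no probe, had median signals of 12.4 to 15.3 scanner units, and the detection limit of an array (trimmed mean of its blank spots plus 2 SD) lay between 13.9 and 16.9. Between 14985 and 16828 gene spots per array were above it. The median of the negative control spots ran from 13.6 to 17.5 over the arrays. It was above the limit of its own array on both unnumbered arrays and on day 0 number 1. On day 3 number 1, day 3 number 2 and day 0 number 2 it was below. A signal above the limit therefore does not by itself show that a gene was expressed, and the limit served as a lenient filter. The log2 values were quantile normalised after 50 units had been added to each signal, and limma was run on the 15437 genes that exceeded the limit on all arrays of either day, with Benjamini-Hochberg adjustment over all of them. The added 50 understates the change of dim genes.

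All 3 genes rose with differentiation, in each case with every day 3 array above every day 0 array. Mag rose by 4.70 on the log2 scale, Mog by 3.08 and Cnp by 2.74. Of the 15437 genes, 0.726% were called higher at day 3 (adjusted p under 0.05, limma), and 10.2% had all day 3 values above all day 0 values. The fold change was larger than that of Mag for 4 genes, than that of Mog for 13 and than that of Cnp for 25, while the median log2 change of all genes was -0.0042. These ranks moved with the processing: over the alternatives Mag ranked from 2 to 7, Mog from 8 to 29 and Cnp from 6 (normexp with the deposited background column) to 82 (the authors' deposited table), and those of Mag and Mog rest on day 0 values near the blank spots. Mag and Mog were near the blank spots at day 0, whereas Cnp was already strong in the precursors. The arrays hold bulk RNA, so more cells expressing a gene and more RNA per cell cannot be told apart.

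**Figure D1:**
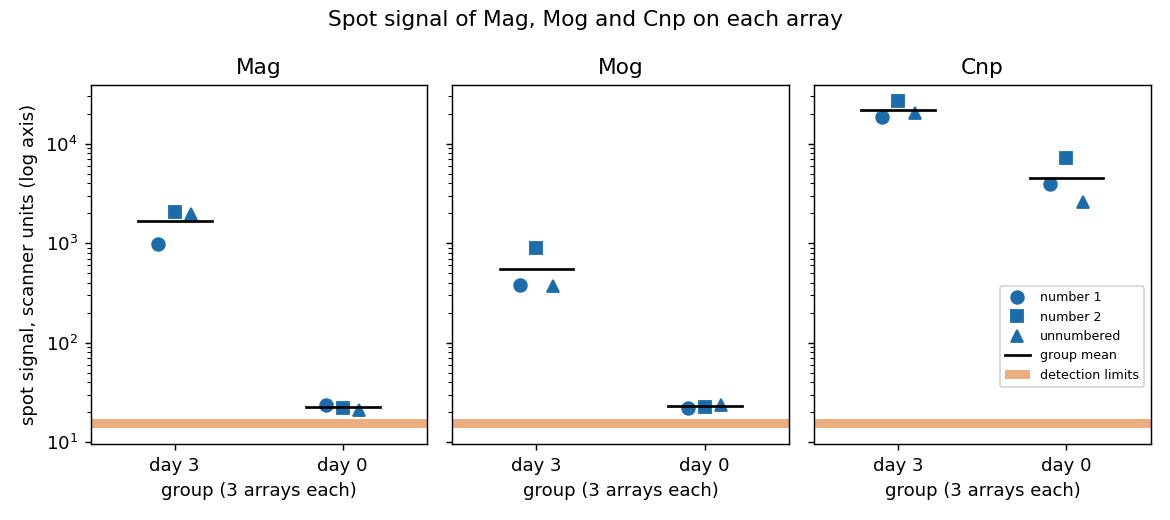
Spot signal in scanner units (log axis) of Mag, Mog and Cnp on each array, with day 3 left of day 0, bars at the group means and a band over the detection limits of the arrays (13.9 to 16.9). Mag lies at 978 to 2069 and Mog at 368 to 893 at day 3, both lie just above the band at day 0, and Cnp lies at 2595 or more on every array.

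**Figure D2:**
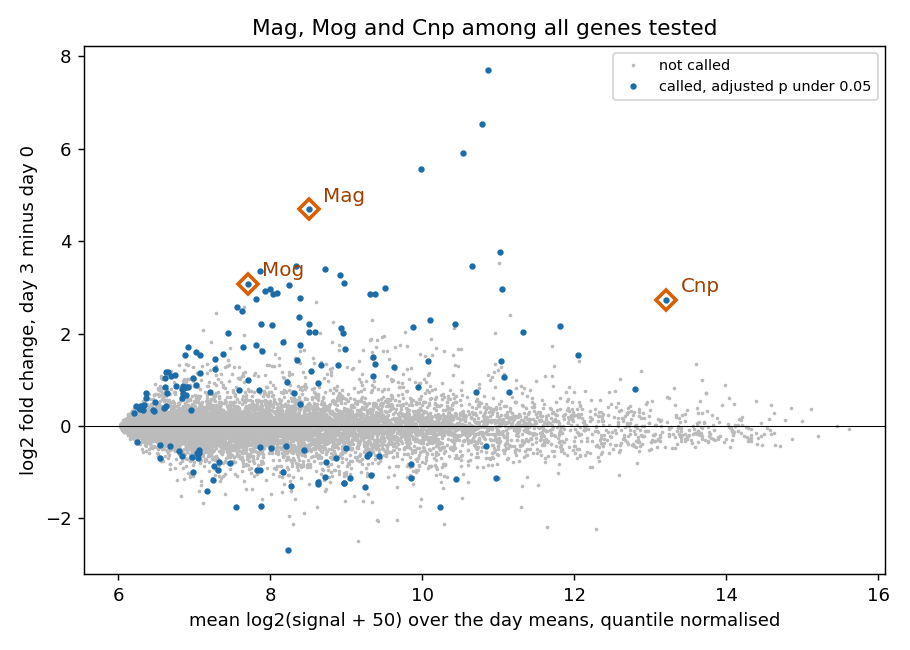
Log2 fold change, day 3 minus day 0 (positive means higher at day 3), against the mean normalised log2 signal, 1 point per gene tested; blue points passed an adjusted p under 0.05 (limma). Mag, Mog and Cnp, ringed, lie at 4.70, 3.08 and 2.74.

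Mag, the axon-facing adhesion protein, had spot signals of 978 on number 1, 2069 on number 2 and 1941 on the unnumbered array at day 3, against 23.7, 22.0 and 21.3 at day 0. The lowest day 3 signal was 41.2 times the highest day 0 signal, and number 1 was the weakest of the day 3 arrays. Mag signals averaged 1663 ± 596 at day 3 and 22.3 ± 1.27 at day 0 (SD, n = 3 each). At day 0 they were only 1.26 to 1.55 times the detection limit of their array, and 2 to 4 of the 96 negative control spots of the array were brighter. The day 3 signals were 70.3 to 132 times the limit.

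Mag rose 25.9-fold on the scale with 50 added, a log2 change of 4.70 with an SE of 0.34 (adjusted p = 0.0192, limma). It was 4.58 within the numbered arrays and 4.93 within the unnumbered pair. Mag kept its call with the pairs as a replicate block (adjusted p = 0.0480, limma). The call was lost when the unnumbered day 3 array was left out (4.63, adjusted p = 0.0902, limma). It was also lost when day 0 number 1 (4.65, adjusted p = 0.121), day 0 number 2 (4.66, adjusted p = 0.0893) or the unnumbered day 0 array (4.70, adjusted p = 0.0844) was left out, in fits with fewer residual degrees of freedom. In the authors' deposited value table, which subtracts the blank level, Mag had 649, 1445 and 1247 at day 3, against 5.72, 3.43 and 3.24 at day 0. On that table limma gave Mag a log2 change of 8.04 with an SE of 0.41 (adjusted p = 4.79e-07), and 1.84% of 14431 genes were called higher. Its size rests on day 0 values close to the blank level.

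Mog, the outer-surface glycoprotein, had spot signals of 383 on number 1, 893 on number 2 and 368 on the unnumbered array at day 3, against 22.1, 22.7 and 23.8 at day 0. The groups did not overlap, and day 3 number 2 stood above the other day 3 arrays by 2.33 times or more. Mog signals averaged 548 ± 299 at day 3 and 22.8 ± 0.86 at day 0 (SD, n = 3 each). At day 0 they were 1.34 to 1.44 times the detection limit, with 0 to 4 of the 96 negative control spots brighter, and at day 3 they were 22.5 to 57.0 times the limit.

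Mog rose 8.46-fold with 50 added, a log2 change of 3.08 with an SE of 0.40, and its adjusted p of 0.0492 (limma) lay close to the threshold. It was 3.35 within the numbered arrays and 2.54 within the unnumbered pair. With the pairs as a replicate block Mog was no longer called (adjusted p = 0.0757, limma). Without day 3 number 2, the array with the strongest Mog signal, the change was 2.67 and the call was kept (adjusted p = 0.0218, limma). Leaving out any other array ended the call. The change was 3.26 or 3.38 when day 3 number 1 or the unnumbered day 3 array was dropped (adjusted p = 0.0943 or 0.112, limma). It was 3.03, 3.07 or 3.08 when day 0 number 1, day 0 number 2 or the unnumbered day 0 array was dropped (adjusted p = 0.194, 0.179 or 0.144, limma). The authors' deposited table listed Mog at 249, 618 and 228 at day 3, against 4.73, 3.77 and 4.60 at day 0. Its log2 change there was 6.23 with an SE of 0.42 (adjusted p = 2.79e-06, limma), and it likewise rests on day 0 values close to the blank level.

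Cnp, the enzyme of the cytoplasmic channels, had spot signals of 18495 on number 1, 26660 on number 2 and 20117 on the unnumbered array at day 3, against 3892, 7124 and 2595 at day 0. The groups did not overlap, and the lowest day 3 signal was 2.60 times the highest day 0 signal. Cnp signals averaged 21757 ± 4323 at day 3 and 4537 ± 2332 at day 0 (SD, n = 3 each). Unlike the other two it was far above the blank spots before differentiation, at 154 to 420 times the detection limit, and at day 3 it was 1229 to 1703 times the limit. Its spread between arrays was wider at day 0, where the strongest signal was 2.75 times the weakest, than at day 3, where it was 1.44 times; the difference in spread was not tested.

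Cnp rose 6.66-fold, a log2 change of 2.74 with an SE of 0.34, and its adjusted p of 0.0464 (limma) was also close to the threshold. It was 2.62 within the numbered arrays and 2.97 within the unnumbered pair, and the adjusted p with the replicate block was 0.0434 (limma). Leaving out any 1 array ended the call. The change was 2.91, 2.54 or 2.80 when day 3 number 1, day 3 number 2 or the unnumbered day 3 array was dropped (adjusted p = 0.0942, 0.126 or 0.166, limma). It was 2.62, 3.04 or 2.51 when day 0 number 1, day 0 number 2 or the unnumbered day 0 array was dropped (adjusted p = 0.181, 0.0797 or 0.128, limma). These adjusted values depend on all genes tested. The unadjusted p of Cnp was 0.00044 with all 6 arrays and 0.00026 without day 0 number 2, where the SE was 0.25 (limma). In the other left-out fits it was larger, from 0.0019 to 0.0027 (limma). The authors' deposited table listed Cnp at 12426, 18736 and 13014 at day 3, against 2271, 3373 and 1425 at day 0. Its log2 change there was 2.71 with an SE of 0.40 (adjusted p = 0.0020, limma), and Cnp was far above the blank level at both times.

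The background column deposited beside each spot was far higher at Cnp than at the spots around it. At Cnp it was 15597, 11500 and 5894 on the day 3 arrays and 3634, 6441 and 683 on the day 0 arrays. The median background of the 8 spots around Cnp was 28.0 to 34.5 at day 3 and 27.0 to 60.8 at day 0, and the highest of them was 206 on any array. At day 3 the column was highest on number 1, where the Cnp signal was lowest, while at day 0 the column and the signal had the same order over the arrays. As a share of the Cnp signal the column ran from 29.3% to 84.3% at day 3 and from 26.3% to 93.4% at day 0. It was 42.8% to 63.9% of the Mag signal at day 3 and 58.2% to 77.3% at day 0, and 37.0% to 77.3% of the Mog signal at day 3 and 63.6% to 68.4% at day 0. At day 3 the column was also above the median of the surrounding spots at Mag (421, 1322 and 831 against 29.7, 73.9 and 63.2). The same held at Mog (142, 371 and 284 against 17.3, 25.1 and 32.8). At day 0 it was below that median at both genes, and on every array some surrounding spot had a higher column value than either. The surrounding spots also differed in signal, with medians of 34.0 to 81.5 around Cnp, 84.3 to 115 around Mag and 46.2 to 69.9 around Mog. These medians were above the signals of Mag and Mog at day 0, and otherwise below the signal of the gene. The authors' value table makes no use of the background column.

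With that column subtracted by normexp, none of the genes was called, although each changed in the same direction (0.0259% of 15437 genes were called higher). The log2 fold change became 3.66 for Mag (SE 0.34, adjusted p = 0.113, limma), 2.11 for Mog (SE 0.55, adjusted p = 0.495) and 3.85 for Cnp (SE 1.05, adjusted p = 0.523). The SE of Cnp was thus 1.05 with the column and 0.34 without it.

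**Figure D3:**
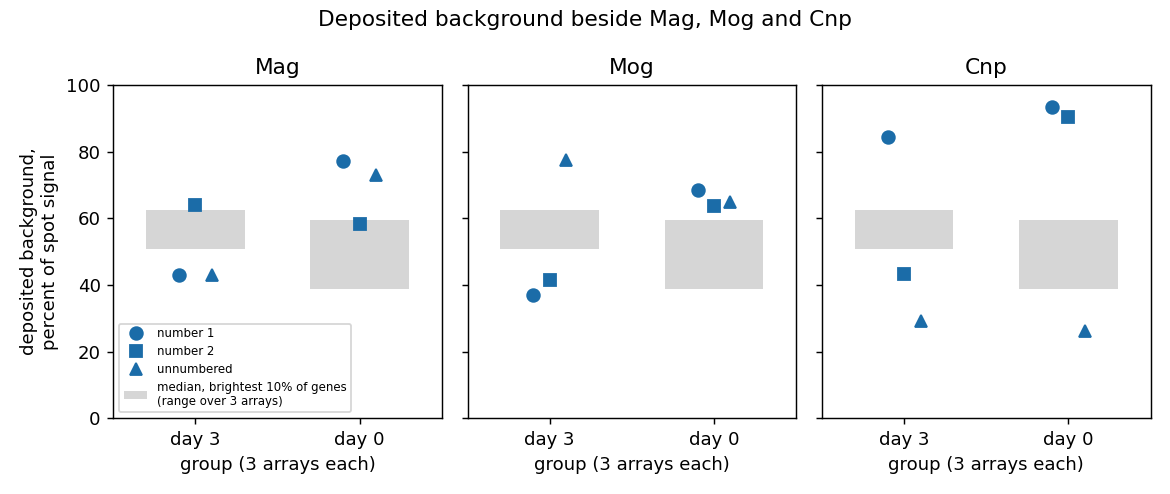
The deposited background as a percent of the spot signal of Mag, Mog and Cnp, with day 3 left of day 0; the grey bands span the median share among the brightest 10% of genes over the 3 arrays of a day. Cnp ranges from 26.3% on the unnumbered day 0 array to 93.4% on day 0 number 1.

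Whether the genes changed by unequal amounts was examined on each array from the difference between their normalised log2 values. The Mog value minus the Mag value was -1.19, -1.27 and -2.35 at day 3 (number 1, number 2, unnumbered), against -0.029, 0.016 and 0.041 at day 0. The change of Mog minus that of Mag was -1.62 on the log2 scale, and the groups did not overlap. The exact two-sided permutation test gave p = 0.1, the smallest that this test can give with 3 against 3 arrays, and an adjusted p of 0.15 over the 3 pairs of genes compared. At day 0 both genes were near the blank spots, and their values with 50 added differed by 0.009 on average. The -1.62 is therefore nearly the gap of -1.61 between both probes at day 3, and since levels of different probes cannot be set against each other, it does not show that Mag changed more than Mog.

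Between Mag and Cnp, the Mag value minus the Cnp value was -4.19, -3.58 and -3.39 at day 3, against -5.38, -6.31 and -5.36 at day 0, a change larger for Mag by 1.96 without overlap (exact permutation p = 0.1, adjusted 0.15). Between Mog and Cnp, the Mog value minus the Cnp value was -5.38, -4.86 and -5.74 at day 3, against -5.41, -6.29 and -5.32 at day 0. These groups overlapped, and the changes of Mog and Cnp differed by 0.35 (exact permutation p = 0.5, adjusted 0.5). On the authors' values the change of Mog exceeded that of Cnp by 3.53 and that of Mag exceeded Cnp by 5.34 (exact permutation p = 0.1 each). With the deposited background column both signs turned, to -1.75 for Mog minus Cnp and -0.19 for Mag minus Cnp (exact permutation p = 0.2 and 0.7). The sizes for Mag and Mog again rest on day 0 values near the blank spots, and the order of the 3 changes is not settled by these arrays.

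**Figure D4:**
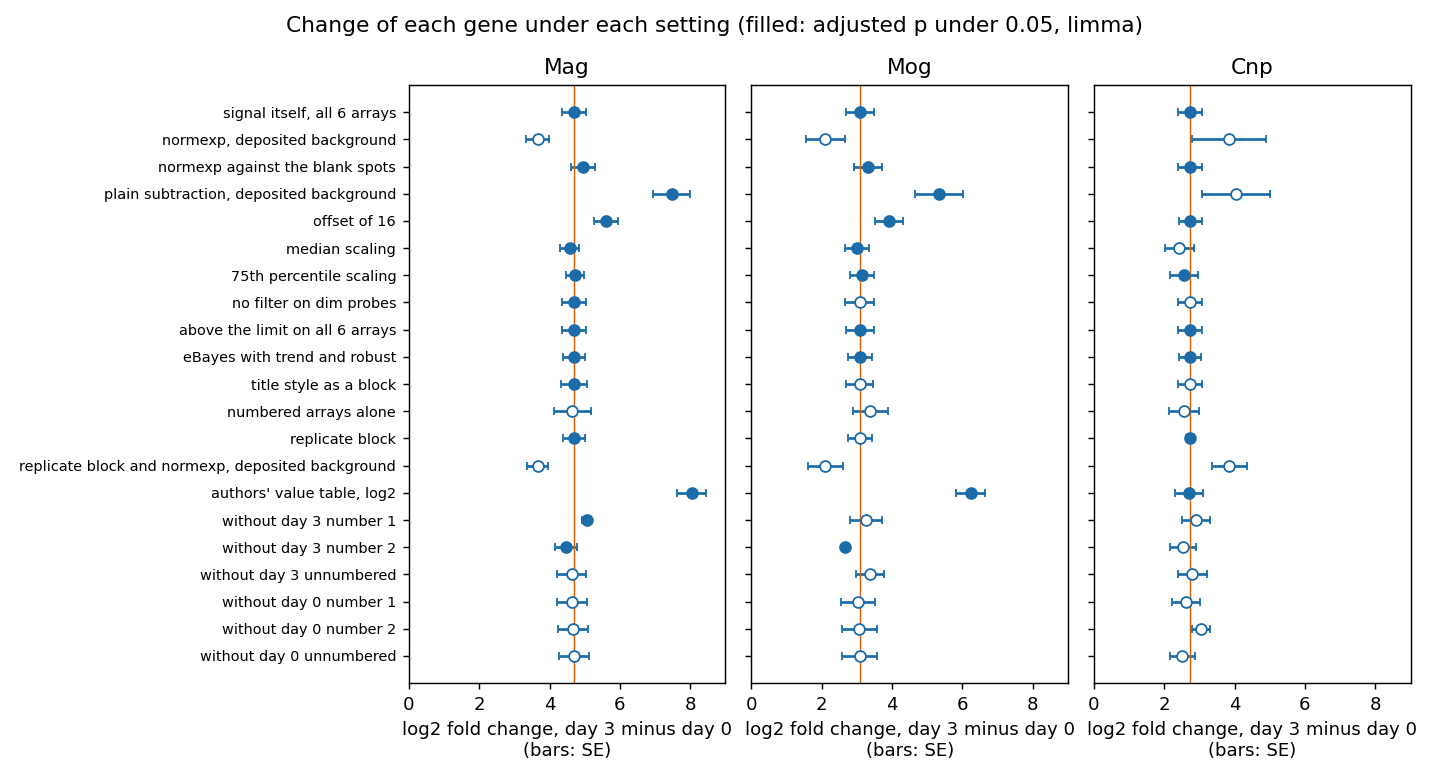
Log2 fold change (day 3 minus day 0) of Mag, Mog and Cnp with its SE under each setting; filled points passed an adjusted p under 0.05 (limma) and the line marks the value from the signal itself. Every value is above 0, from 3.66 to 8.04 for Mag, 2.11 to 6.23 for Mog and 2.43 to 4.04 for Cnp.

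Few genes passed from near blank to bright as Mag and Mog did. Of 7476 genes with a signal under 25 on every day 0 array, 3 exceeded 300 on every day 3 array, namely Mag, Mog and ENSRNOG00000009660, and 0 genes showed the reverse. These signal bounds were set after the values of Mag and Mog had been seen, so both meet them by choice. The signals were not normalised, and the count is a description. ENSRNOG00000009660 had signals of 428, 898 and 645 at day 3, against 23.3, 24.0 and 24.6 at day 0, and it rose by 3.36 on the log2 scale with an SE of 0.28 (adjusted p = 0.0229, limma). The bounds themselves require a rise in signal of any gene that meets them.

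The same gene had the pattern nearest to the mean of the 3 genes over the 6 arrays, at a root mean square difference of 0.13 between centred log2 values. It lay at 0.68 from Mag, 0.27 from Mog and 0.45 from Cnp, while Mag, Mog and Cnp themselves lay at 0.63, 0.31 and 0.45 from their mean. ENSRNOG00000009186 came second at 0.15, with signals of 3611, 6208 and 4287 at day 3, against 432, 715 and 365 at day 0 (log2 fold change 3.47, SE 0.40, adjusted p = 0.0423, limma). Both identifiers were picked for a pattern close to that of the 3 genes, so a rise of similar size follows from the choice. Neither identifier is paired with a symbol in the files or the reference table used here, and the arrays of a day share whatever sets that day apart.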

How the data were processed

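Per the file headers, the authors deposited for each spot the median intensity at 635 nm and a background median, in scanner units; no source used here gives the scanner software. Per the labels' protocols, RNA was extracted with an RNeasy kit, amplified to amino-allyl RNA and coupled to Cy5. The authors' deposited value table is, on each array, the spot intensity minus a constant within 0.00087 of the trimmed mean of the blank spots, scaled so that the median listed value is 25, with 3341 to 5186 dim spots left unlisted. This was found by setting the table against the scanner values; its scale is linear.

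Groups, days and numbers were read from the titles; other label fields carry names of unrelated subjects. limma 3.58.1 in R 4.3.3 was used: log2(intensity + 50) of gene spots without the background column, quantile normalised, lmFit and eBayes over 6 arrays, and Benjamini-Hochberg over all genes tested. The column was left out because it follows the spot's own signal (Spearman 0.92 to 0.97 across gene spots). The fit was tested on simulated data in which every array was drawn independently, so correlation within pairs was not simulated. Differences between genes were tested by exact permutation. Deviations from the day means correlated within the pairs at 0.27, 0.48 and 0.60 (unnumbered arrays as the third pair), all over 0.1; with normexp and the background column they were 0.088, 0.14 and 0.24, 1 of them under it. The fit reported first and the permutation tests used no block, although these correlations passed the bound of 0.1 on the values used. The pairs entered as a block in alternatives only. They were formed from the numbers in the titles and checked only by these correlations. The genes, lists and the choice to leave out the background were made with earlier results of these data known. The named genes were the 3 members and the 2 identifiers of nearest pattern. The names Mag, Mog and Cnp come with the rule that chose the identifiers: 0 identifiers of the reference table match the arrays, so lists of other myelin, lineage and cell type genes set by symbol were not used here. The number of arrays limits the precision.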

Additional observations from a re-analysis of the deposited data

How the results depend on the processing

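Mag, Mog and Cnp rose in all 20 alternatives tried for each, and kept their call in 13, 9 and 7 of them, with adjusted p from 4.79e-07 to 0.363, 2.79e-06 to 0.503 and 0.0020 to 0.523 (limma). The calls that were lost, with their log2 fold changes for Mag, Mog and Cnp, were as follows. Normexp with the deposited background column, with or without the replicate block, gave 3.66, 2.11 and 3.85, and the numbered arrays alone gave 4.64, 3.39 and 2.56. Without a filter on dim probes, or with title style as a block, the calls of Mog (3.08) and Cnp (2.74) were lost, and the replicate block ended that of Mog (3.08) and of neither other gene. Plain subtraction of the column (4.04) and median scaling (2.43) ended that of Cnp. Plain subtraction gave 7.47 for Mag and 5.33 for Mog, which were called. Leaving out each array gave 4.47 to 5.06, 2.67 to 3.38 and 2.51 to 3.04, with 2, 1 and 0 of 6 fits calling the gene. Over all genes, 112 were called higher and 49 lower. Normexp with the deposited column called 4 and 1, plain subtraction 24 and 1, the authors' values 266 and 81, and eBayes with trend and robust settings 294 and 97. The 75th percentile scaling gave 186 higher and shifted the median of all genes by 0.12; no filter gave 64 higher and title style as a block 114 lower. Rises were 69.6% of calls. In the other fits of all 6 arrays that called any gene, they ran from 56.3% (median scaling) to 96.0% (plain subtraction). limma called 0 and 0 for the numbered arrays alone and for the replicate block with normexp, where 1998 and 1347 genes had an unadjusted p under 0.05. Leaving out each array gave 0 to 76 higher and 0 to 19 lower; limma called 0 higher once day 0 number 1 or day 0 number 2 was dropped, where 1694 and 1725 genes had an unadjusted p under 0.05. Among the differences between genes, that of Mog and Cnp reversed to -1.75 and that of Mag and Cnp to -0.19 with normexp and the deposited column. Fits with arrays left out or blocks have fewer residual degrees of freedom. Without day 0 number 2, though, Cnp had a larger change (3.04 against 2.74) and a smaller SE (0.25 against 0.34). Its unadjusted p was also smaller there (0.00026 against 0.00044, limma). The adjusted p depends on all genes tested, and it was 0.0797 in that fit. Otherwise the cause of the lost calls was not tested. Signal near the blank spots at day 0 limits the size that can be given for the changes of Mag and Mog.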
